A study of Homo sapiens with 5 samples.

Results

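Cyclin-dependent kinase (CDK) inhibitors are small proteins that bind CDKs or their cyclins and hold back progression through the cell cycle. The human genes chosen here were CDKN1A, CDKN1B and CDKN1C of the Cip/Kip family, CDKN2A, CDKN2B, CDKN2C and CDKN2D of the INK4 family, and CDKN3, a phosphatase that acts on CDKs. They were found by gene symbol among 40263 genes listed for either of the cell lines and 31029 listed for both, and all 8 were listed for both lines.

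RNA was sequenced from 2 replicates of 501Mel, a human melanoma line, and 3 replicates of Hermes 3A, an immortalised line of human melanocytes. Every library came from cells infected with a lentivirus carrying a short hairpin RNA against BPTF (shBPTF), the largest subunit of the chromatin remodelling complex NURF, and selected with puromycin at 3 µg/ml for 5 days. The study used more than one hairpin against BPTF, and the labels do not say which one a library carries. 501Mel cells were grown in RPMI medium with foetal calf serum, whereas the medium of Hermes 3A cells also held TPA, cholera toxin, stem cell factor and endothelin-1. Control hairpin libraries were not analysed here, so the comparison made is between the lines, and the line, its medium and its response to shBPTF cannot be told apart.

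INK4 proteins bind CDK4 and CDK6 and keep them from pairing with D-type cyclins, which leaves the retinoblastoma protein RB active and E2F factors silent. Cip/Kip proteins bind cyclin-CDK complexes, above all those of CDK2 with cyclins E and A. CDKN1A encodes p21, which is known to be induced by DNA damage, and CDKN2A encodes both p16INK4a and, from another first exon and reading frame, p14ARF, which restrains MDM2. In pigment cells CDKN2A is the classical familial melanoma gene, and p16 and p21 are widely used as marks of senescence.

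The 2 CDKN2A starts are shown because one count stands for both of their transcripts, and the CDKN1A start is shown because this gene gave the largest difference between the lines. The windows reach from 250 bases before to 50 bases after the RefSeq start (GRCh38.p14), 5′ to 3′ on the strand of the gene, and capitals mark the GC box GGGCGG or its reverse complement CCGCCC. They lie at chr6:36678464-36678763 (plus strand) for CDKN1A, chr9:21995275-21995574 (minus strand) for the p14ARF start and chr9:21974808-21975107 (minus strand) for the p16INK4a start.
CDKN1A start: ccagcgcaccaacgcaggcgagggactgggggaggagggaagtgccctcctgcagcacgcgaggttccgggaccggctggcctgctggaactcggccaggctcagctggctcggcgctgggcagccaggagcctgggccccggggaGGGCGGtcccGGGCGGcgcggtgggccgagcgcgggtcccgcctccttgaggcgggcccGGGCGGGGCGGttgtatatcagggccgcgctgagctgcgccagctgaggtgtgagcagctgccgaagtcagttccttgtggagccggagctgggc
CDKN2A p14ARF start: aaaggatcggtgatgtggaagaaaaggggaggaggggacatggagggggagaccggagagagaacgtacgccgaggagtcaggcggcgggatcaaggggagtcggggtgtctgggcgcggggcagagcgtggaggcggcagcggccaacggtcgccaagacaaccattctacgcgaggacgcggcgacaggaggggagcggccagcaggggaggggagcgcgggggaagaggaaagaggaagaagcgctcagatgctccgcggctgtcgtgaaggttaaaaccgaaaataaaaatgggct
CDKN2A p16INK4a start: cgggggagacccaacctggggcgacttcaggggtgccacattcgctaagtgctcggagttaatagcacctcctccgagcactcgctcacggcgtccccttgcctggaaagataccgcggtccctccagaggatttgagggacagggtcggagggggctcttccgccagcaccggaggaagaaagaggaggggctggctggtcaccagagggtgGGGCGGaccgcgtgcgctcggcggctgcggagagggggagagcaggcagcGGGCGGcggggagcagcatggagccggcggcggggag
The CDKN1A window held 4 GC boxes, counting a pair that overlaps, and 29 CG dinucleotides. The p14ARF window held 0 GC boxes and 28 CG dinucleotides, and the p16INK4a window held 2 and 26. On both strands, 44.95% of 35116 RefSeq promoter windows of the same length held a GC box, and the median window held 14 CG dinucleotides, with quartiles at 4 and 28. The E-box CANNTG, which also covers the letters CATGTG found in M-boxes bound by MITF, occurred 3 times in the CDKN1A window, once at the p14ARF start and not at the p16INK4a start, against 68.7% of all windows. CATGTG and TATAAA were in none of these 3 windows, and 11.1% and 11.5% of all windows held them. These matches describe the letters of the windows alone. The table of windows held an entry for 7 of the 8 genes, and CDKN1C had none.

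Library totals ran from 30073071 to 43032311 counts, so that 3 counts, the level set as the floor for a count of 0, corresponded to 0.0697 to 0.0998 CPM (the count divided by the library total, on a common scale). BPTF itself had 2832 and 2189 counts in 501Mel and 1906, 2110 and 1628 in Hermes 3A, or 61.8 CPM ± 5.65 (SD, n = 2) and 50.5 CPM ± 4.30 (SD, n = 3), which was not called (adjusted p = 0.211). Without control libraries this does not measure the knockdown. Of the melanocyte lineage markers, all 9 were detected in both lines, MITF at 778 CPM ± 108 (SD, n = 2) in 501Mel and 665 CPM ± 19.0 (SD, n = 3) in Hermes 3A. DCT, the dopachrome tautomerase, was higher in 501Mel by 6.87 on the log2 scale, whereas PMEL, MLANA and PAX3 were higher in Hermes 3A by 1.39, 1.22 and 1.12, and 5 were not called. In either direction 34.3% of all genes tested were called. Among 7 fibroblast markers COL1A2 had 3 and 4 counts in 501Mel and 2893, 7359 and 5631 in Hermes 3A, and passed the low count filter through Hermes 3A alone. The 5 markers over the filter level in both lines were not called, and COL1A1 and COL3A1 had their highest count in 501Mel replicate 1, at 281 and 52. Summed over the 7 markers the level was 3.46 to 17.2 CPM in 501Mel and 80.1 to 190.2 CPM in Hermes 3A, but without COL1A2 it was 17.1 and 3.35 CPM in 501Mel and 10.6, 3.60 and 2.99 CPM in Hermes 3A. No fibroblast marker was at 0 throughout a line, and the part of such cells in the results was not tested. In RNA from bulk cultures, fewer cells that express a gene and less RNA per cell cannot be told apart. Of the keratinocyte markers 5 of 7 were listed for a line and 2 were tested: KRT10, which was not called, and TP63, which passed the filter through Hermes 3A alone, at 4 and 2 counts against 24, 17 and 18. Of the defining keratin and cornification genes, KRT14 had 0 and 1 counts and IVL 0 and 0 in 501Mel, and neither was listed for Hermes 3A. Summed keratinocyte markers ranged from 32.9 to 34.3 CPM in 501Mel and 43.9 to 48.2 CPM in Hermes 3A, nearly all of it KRT10. Without 501Mel replicate 1 there were 2 calls among the melanocyte markers in place of 4.

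A gene was called when its Benjamini-Hochberg adjusted p, from the quasi-likelihood test of edgeR over 17918 genes, was under 0.05 and its absolute log2 fold change was at least 1. All 8 CDK inhibitor genes passed the low count filter, CDKN1A through the Hermes 3A libraries alone. A gene that is under the filter level throughout one line can enter the test only through the line where it is high. This favours a call without ensuring it, as DMRTA1 below was not called. The counts that follow therefore leave such genes out where this is said, a choice made after seeing the data. Of the 7 genes over the filter level in at least 1 library of each line 3 were called: CDKN2C and CDKN3 were higher in 501Mel, and CDKN1C was higher in Hermes 3A. Among all genes over that level in both lines 27.9% were called, 14.2% higher and 13.8% lower in 501Mel, so that 3 calls of 7 are read against a background in which the lines differed widely. With CDKN1A counted, 4 of 8 were called, against 34.3% of all genes tested, 17.2% higher and 17.1% lower in 501Mel. By adjusted p alone 5 of 8 passed, against 48.4% of all genes. The CPM of the lines did not overlap for 6 of 8, against 69.9% of all genes. The median log2 fold change (501Mel minus Hermes 3A) of the 8 genes was -0.33, with CDKN1A set at its bound, and that of all tested genes was 0.02.

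**Figure D1:**
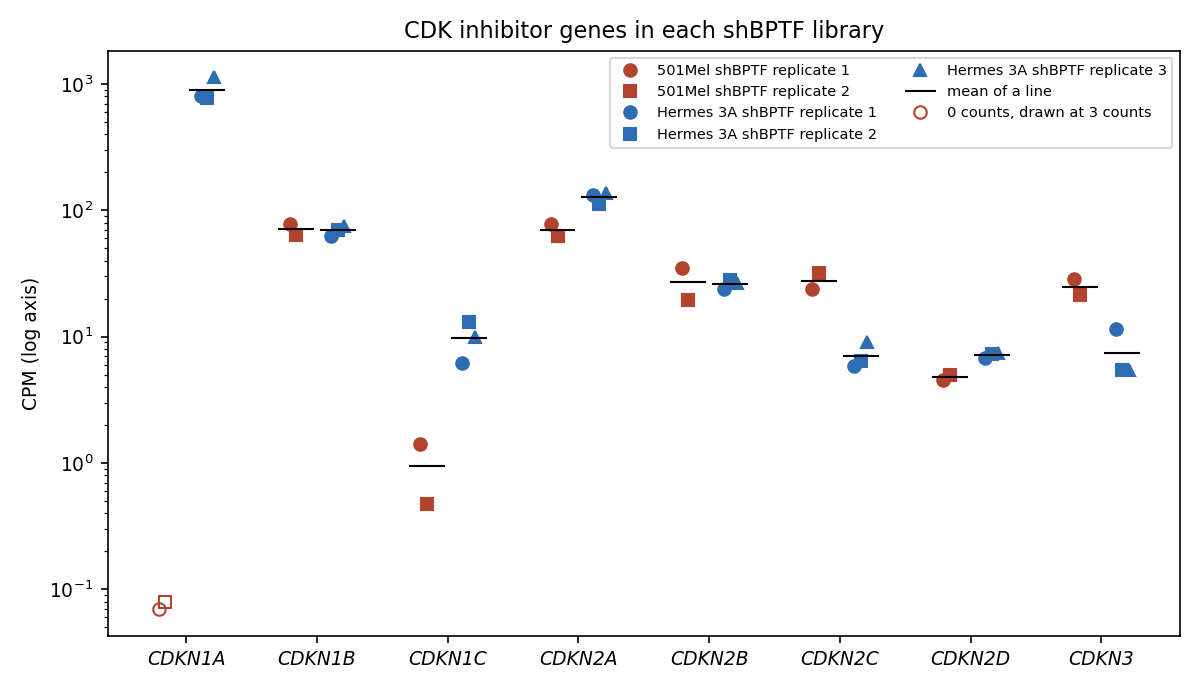
Level of each CDK inhibitor gene in CPM (log axis) in the 2 libraries of 501Mel shBPTF and the 3 of Hermes 3A shBPTF, with the mean of each line as a bar. CDKN1A was at 0 in both 501Mel libraries, drawn as open symbols at the level of 3 counts, and lay between 774 and 1131 CPM in Hermes 3A, while the points of CDKN1B and CDKN2B overlapped between the lines.

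**Figure D2:**
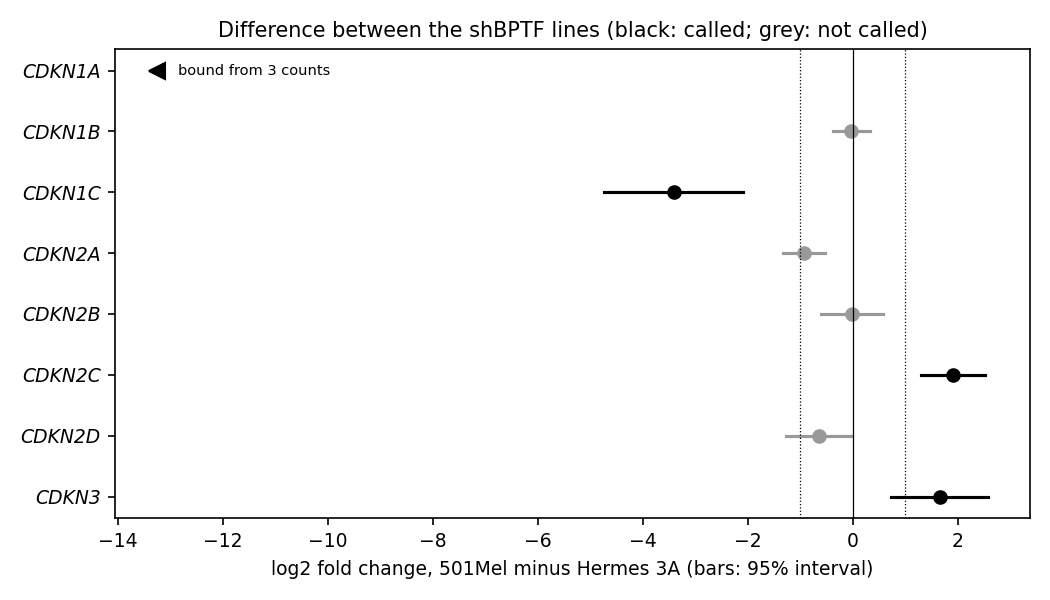
Log2 fold change of each CDK inhibitor gene, 501Mel minus Hermes 3A, with the 95% interval of the fit as a bar, black for called genes and grey for the others. Dotted lines mark a log2 fold change of 1 in either direction, and the arrow for CDKN1A is a bound computed from 3 counts, at least 9764-fold higher in Hermes 3A.

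CDKN1A (ENSG00000124762, chromosome 6 of GRCh38, 36676460 to 36687339, plus strand) had 0 counts in both 501Mel libraries. In Hermes 3A it had 33363, 31620 and 34023 counts, or 801, 774 and 1131 CPM, with a mean of 902 CPM ± 199 (SD, n = 3). The groups were thus entirely apart, and per kb of exon CDKN1A was the most abundant CDK inhibitor RNA of the Hermes 3A cells. Taking 3 counts as the floor in each 501Mel library, CDKN1A was at least 9764-fold higher in Hermes 3A. No p is given, since the gene entered the test only through Hermes 3A, and the floor covers counting error only.

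A count of exactly 0 was unusual for a gene as abundant as CDKN1A in the other line. Of 2334 genes with at least 3000 counts in every Hermes 3A library, 6 were at 0 in both 501Mel libraries, and another 11 had between 1 and 20 counts there. The 6 at 0 were CDKN1A, S100A6, IGFBP7, H1F0, MSC and CHST3. Among genes listed for both lines, to which these numbers are limited, the reverse was not seen: of 3129 genes with at least 3000 counts in both 501Mel libraries, 0 were at 0 in Hermes 3A and 4 had between 1 and 20 counts. The lowest count of 12 housekeeping genes in any library was 561, for TBP. DINOL, a non-coding RNA gene on the opposite strand that shares 146 exon bases with CDKN1A, was listed for neither line. Whether the 0 reflects absent RNA or the way the counts were made cannot be told apart here, and the fold bound, the place of CDKN1A in the order of levels and the Cip/Kip shares all rest on it.

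Genes of the response to DNA damage and stress, which CDKN1A belongs to, were lower in 501Mel over most of the list. Of 16 genes reported, 14 were called lower in 501Mel, against 17.1% of all genes tested, 1 was higher and 1 was not called, with a median log2 fold change of -1.65. FAS, a death receptor, had 16 and 13 counts in 501Mel and 2056, 2353 and 1945 in Hermes 3A, a difference of -7.37 (SE 0.250, adjusted p = 8.26e-06). PHLDA3, an inhibitor of AKT signalling, differed by -4.97 (adjusted p = 3.5e-05) and BTG2, an antiproliferative factor, by -2.95 (adjusted p = 0.000915). FDXR, the ferredoxin reductase of mitochondria, had 507 and 481 counts against 3006, 3524 and 3009 (adjusted p = 6.48e-05). In all 4 the Hermes 3A libraries lay above both 501Mel libraries. MDM2, a ubiquitin ligase, was also lower in 501Mel, at 57.2 CPM ± 21.05 (SD, n = 2) against 366 CPM ± 73.0 (SD, n = 3). MDM4, its relative, was the gene that was higher, by 1.13 (adjusted p = 0.00776).

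**Figure D3:**
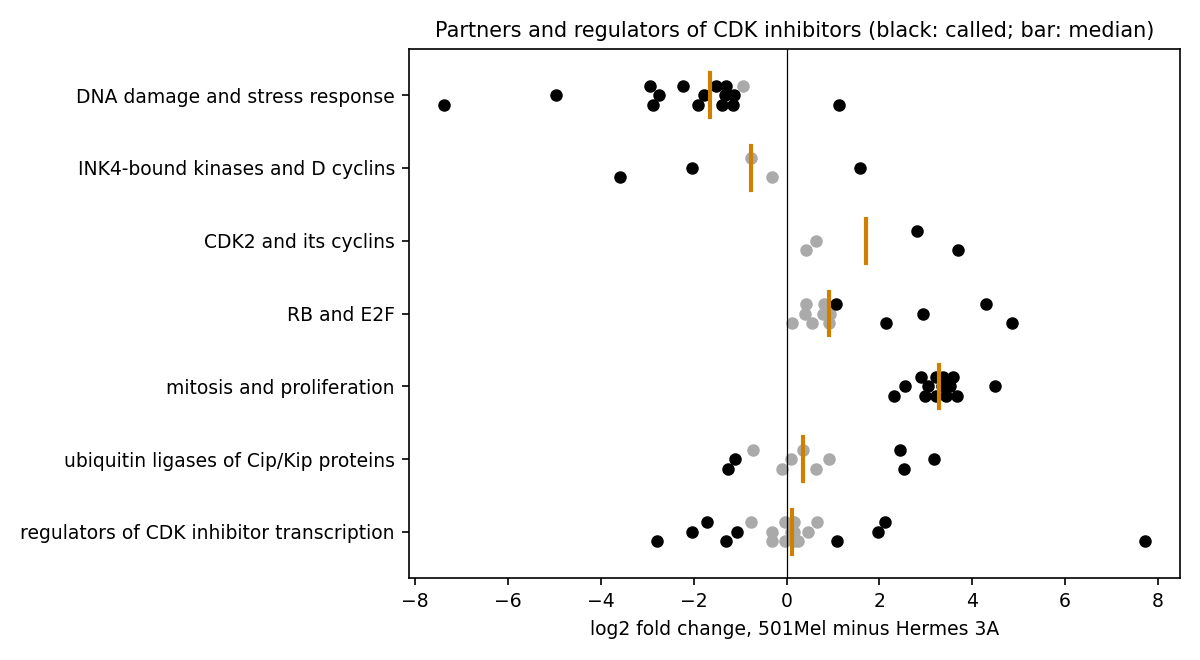
Log2 fold change (501Mel minus Hermes 3A) of each tested gene in 7 lists of partners and regulators of CDK inhibitors, with called genes in black, the others in grey and the median of each list as an orange bar. CCND2, the leftmost cyclin D point, passed the low count filter through Hermes 3A alone. The 16 genes of the response to DNA damage and stress lay mostly to the left, with a median of -1.65, and all 14 mitosis genes lay to the right, with a median of 3.29.

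CDKN1C (ENSG00000129757, chromosome 11, 2883213 to 2885773, minus strand) encodes p57, a Cip/Kip inhibitor that is imprinted and expressed from the maternal allele. It had 61 and 18 counts in 501Mel and 259, 532 and 299 in Hermes 3A, or 1.42 and 0.475 CPM against 6.22, 13.0 and 9.94 CPM. All Hermes 3A libraries lay above both 501Mel libraries. The mean was 0.947 CPM ± 0.666 (SD, n = 2) in 501Mel and 9.73 CPM ± 3.41 (SD, n = 3) in Hermes 3A, and the log2 fold change was -3.41 (SE 0.563, 95% interval -4.73 to -2.08, adjusted p = 0.00269), or 10.6-fold higher in Hermes 3A. The size rested in part on a single library: without 501Mel replicate 1 it was -4.39, and without 501Mel replicate 2 it was -2.85.

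Of 7 genes next to CDKN1C in the imprinted region of 11p15, 6 were listed for both lines and 5 were tested. Of these 3 were called lower in 501Mel, 0 higher and 2 not called, with a median of -1.97, while 34.3% of all genes tested were called in either direction. PHLDA2, which like CDKN1C is imprinted, had 64 and 16 counts against 929, 346 and 261, a difference of -3.86 (adjusted p = 0.00482). SLC22A18, a transporter gene of the same domain, had 168 and 135 counts against 1893, 1756 and 938, a difference of -3.48 (adjusted p = 0.000106). Its antisense gene SLC22A18AS differed by -1.97 (adjusted p = 0.0098), and, as the strand setting of the counting is not known here, reads of this pair cannot be told apart. KCNQ1, a potassium channel gene, was too low to test, with 1 and 0 counts in 501Mel and 7, 12 and 6 in Hermes 3A. The genes farther out were not called: NAP1L4, a histone chaperone, stood at 0.36 (adjusted p = 0.0543), and CARS, the cysteinyl-tRNA synthetase, at 0.71 (adjusted p = 0.0166). KCNQ1OT1, the antisense RNA of the domain, was not analysed here.

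CDKN1B (ENSG00000111276, chromosome 12, 12715058 to 12722371, plus strand) encodes p27, whose level is known to be set largely by degradation of the protein. Its counts were 3388 and 2415 in 501Mel and 2615, 2850 and 2272 in Hermes 3A, or 78.7 and 63.8 CPM against 62.8, 69.7 and 75.5 CPM. The ranges overlapped throughout. The difference was -0.02 (SE 0.148, 95% interval -0.37 to 0.32, adjusted p = 0.903), so that a difference of 1 on the log2 scale lay outside the interval.

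The ubiquitin ligase genes that mark p21, p27 and p57 proteins for degradation were split. Of 11 tested, 3 were called higher in 501Mel, 2 lower and 6 were not called, with a median of 0.35. In either direction 34.3% of all genes tested were called. DTL, the substrate receptor of the CUL4 ligase that targets p21 in S phase, was higher by 3.17 (adjusted p = 0.00326). SKP2, the receptor for p27, was higher by 2.45 (adjusted p = 0.000106), at 159 CPM ± 7.34 (SD, n = 2) against 27.8 CPM ± 4.29 (SD, n = 3), and its cofactor CKS1B by 2.53 (adjusted p = 0.00252). UBAC1 and RNF123, the subunits of the KPC ligase of p27, were lower, UBAC1 by 1.26 on the log2 scale (adjusted p = 0.00074) and RNF123 with 54.9 CPM ± 5.53 (SD, n = 2) against 114 CPM ± 2.07 (SD, n = 3). Of CDK2 and its cyclins, the main partners of Cip/Kip proteins, 4 of 5 were tested and 2 were called, both higher in 501Mel. The share of all genes tested that were called in that direction was 17.2%. CCNA2 was higher by 3.69 (adjusted p = 0.00106) and CCNE2 by 2.81 (adjusted p = 0.00229).

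CDKN2A (ENSG00000147889, chromosome 9, 21967753 to 21995301, minus strand, 14 annotated transcripts) was expressed in both lines. It had 3378 and 2359 counts in 501Mel and 5541, 4625 and 4126 in Hermes 3A, or 78.5 and 62.3 CPM against 133, 113 and 137 CPM. Every Hermes 3A library was above both 501Mel libraries. The means were 70.4 CPM ± 11.4 (SD, n = 2) and 128 CPM ± 12.8 (SD, n = 3), and the difference of -0.93 (SE 0.173, 95% interval -1.34 to -0.52) passed the adjusted p of 0.05 (adjusted p = 0.00437) and not the threshold of 1 on the fold change. Without 501Mel replicate 1 it was -1.10 (adjusted p = 0.0113), and without Hermes 3A replicate 2 it was -1.08 (adjusted p = 0.00592), both of which would be calls. The count adds reads of the p16INK4a and p14ARF transcripts, which begin at separate starts, and their proportions were not measured. CDKN2B-AS1, the antisense RNA of the locus also known as ANRIL, shares 341 exon bases with CDKN2A, and it had 31 and 32 counts in 501Mel and 21, 25 and 21 in Hermes 3A.

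CDKN2B (ENSG00000147883, chromosome 9, 22002903 to 22009363, minus strand) encodes p15, known as a target of TGF-beta signalling. Its counts were 1509 and 735 in 501Mel and 995, 1154 and 805 in Hermes 3A, or 35.1 and 19.4 CPM against 23.9, 28.2 and 26.8 CPM. The 501Mel libraries lay on either side of all 3 Hermes 3A libraries. The difference was -0.01 (SE 0.252, 95% interval -0.61 to 0.58, adjusted p = 0.969). Leaving out 501Mel replicate 1 gave -0.50 and leaving out 501Mel replicate 2 gave 0.33, neither of which was a call.

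The other genes around CDKN2A and CDKN2B on 9p21, a region often deleted as a block in melanoma, were mostly detected in both lines. Of 9 neighbours 8 were tested, and of the 6 over the filter level in both lines 0 were called higher in 501Mel and 1 lower, with a median of -0.04. Among all genes over that level in both lines 13.8% were called lower. MTAP, the methylthioadenosine phosphorylase gene next to CDKN2A, had 65.5 CPM ± 7.85 (SD, n = 2) in 501Mel and 45.3 CPM ± 2.62 (SD, n = 3) in Hermes 3A, a difference of 0.47 (adjusted p = 0.0301) that was under the threshold on the fold change. HACD4, a gene of fatty acid elongation, had 7 and 8 counts against 189, 275 and 272, and as it passed the filter through Hermes 3A alone no test is given. FOCAD, a focal adhesion gene, was lower in 501Mel by 1.07 on the log2 scale (adjusted p = 0.00134). MLLT3 stood at -0.66 (adjusted p = 0.037), KLHL9 at -0.39 (adjusted p = 0.107) and CDKN2B-AS1 at 0.31 (adjusted p = 0.563). DMRTA1, with 5 and 0 counts against 24, 15 and 5, also passed through Hermes 3A alone. ELAVL2 had 17 and 29 counts against 3, 10 and 7 (1.61, adjusted p = 0.0693), and the interferon gene IFNE had 0 in both 501Mel libraries and at most 1 in Hermes 3A.

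CDKN2C (ENSG00000123080, chromosome 1, 50960745 to 50974633, plus strand), which encodes p18, was the INK4 gene that was called. It had 1023 and 1202 counts in 501Mel and 243, 262 and 272 in Hermes 3A, or 23.8 and 31.8 CPM against 5.83, 6.41 and 9.04 CPM. Both 501Mel libraries were well above all Hermes 3A libraries. The mean was 27.8 CPM ± 5.64 (SD, n = 2) against 7.10 CPM ± 1.71 (SD, n = 3), and the difference of 1.91 (SE 0.263, 95% interval 1.29 to 2.53, adjusted p = 0.00125) made it 3.76-fold higher in 501Mel. CDKN2C is known as an E2F target, and its direction was opposite to that of CDKN2A.

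CDKN2D (ENSG00000129355, chromosome 19, 10566462 to 10569059, minus strand), which encodes p19, was the lowest INK4 gene of the 501Mel cells. It had 197 and 190 counts in 501Mel and 284, 299 and 223 in Hermes 3A, or 4.58 and 5.02 CPM against 6.82, 7.32 and 7.41 CPM. The groups did not overlap and the replicates were close together. The difference was -0.64 (SE 0.268, 95% interval -1.27 to -0.01) and did not pass (adjusted p = 0.0837), whereas DESeq2 gave an adjusted p of 0.0147 with a fold change that also stayed under the threshold.

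The kinases that INK4 proteins bind, with their D-type cyclins, moved in both directions. Of the 4 over the filter level in both lines 1 was called higher in 501Mel and 1 lower, and the median was -0.54. Among all genes over that level in both lines 27.9% were called. CCND1, cyclin D1, was lower in 501Mel by 2.03 on the log2 scale (adjusted p = 0.00261), at 360 CPM ± 46.7 (SD, n = 2) against 1394 CPM ± 480 (SD, n = 3). CDK6 was higher by 1.58 (adjusted p = 0.0146), but its 501Mel replicates stood far apart, with 3911 and 1209 counts, against 818, 656 and 693 in Hermes 3A. CCND2, cyclin D2, was near the floor, with 1 and 2 counts against 29, 19 and 6, and passed the filter through Hermes 3A alone. CDK4 stood at 184 CPM ± 19.9 (SD, n = 2) and 297 CPM ± 53.1 (SD, n = 3), a difference of -0.77 (adjusted p = 0.0197) under the threshold on the fold change, and CCND3, cyclin D3, at -0.31 (adjusted p = 0.108). Without 501Mel replicate 1 there was 1 call among the 5 genes of this list, CCND1, in place of 3.

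Downstream of these kinases, 5 of 13 RB and E2F genes were called and 8 were not called, with a median of 0.92. In either direction 34.3% of all genes tested were called. The 5 were all higher in 501Mel, a direction in which 17.2% of all genes tested were called. The activator E2F2 was higher by 4.31 (adjusted p = 0.000819), E2F1 by 2.93 (adjusted p = 0.00311), the atypical repressor E2F8 by 4.87 (adjusted p = 0.000202) and the RB relative RBL1 by 2.14 (adjusted p = 0.000379). TFDP1, the dimer partner of E2F factors, was the other gene called, at 192 CPM ± 40.9 (SD, n = 2) against 88.0 CPM ± 7.12 (SD, n = 3). RB1 itself was not called, with 148 CPM ± 22.6 (SD, n = 2) and 131 CPM ± 9.27 (SD, n = 3).

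Known regulators of CDK inhibitor transcription did not move one way. Of 22 tested, 4 were called higher in 501Mel, 5 lower and 13 were not called, with a median of 0.12. In either direction 34.3% of all genes tested were called. TBX3, a T-box repressor of CDKN2A and CDKN1A, had 1954 and 3057 counts in 501Mel and 11, 12 and 9 in Hermes 3A, a difference of 7.72 (adjusted p = 1.82e-05). Its relative TBX2, also known to repress these genes, went the other way by -2.79 (adjusted p = 3.42e-05), at 36.6 CPM ± 2.16 (SD, n = 2) against 243 CPM ± 17.4 (SD, n = 3). EZH2, the Polycomb methyltransferase, was higher in 501Mel by 2.11 (adjusted p = 0.000226), and FOXO1, an activator of CDKN1B, was lower by 2.04 (adjusted p = 0.00245).

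CDKN3 (ENSG00000100526, chromosome 14, 54396849 to 54420218, plus strand) encodes a dual specificity phosphatase that removes the activating phosphate of CDK2 and is itself known to be expressed with the cell cycle. Its counts were 1230 and 808 in 501Mel and 481, 222 and 163 in Hermes 3A, or 28.6 and 21.3 CPM against 11.5, 5.43 and 5.42 CPM. Hermes 3A replicate 1 was the highest of its line and still below both 501Mel libraries. The mean was 24.96 CPM ± 5.12 (SD, n = 2) against 7.47 CPM ± 3.53 (SD, n = 3), and the difference was 1.66 (SE 0.393, 95% interval 0.73 to 2.58, adjusted p = 0.0116), or 3.15-fold. The call was lost without 501Mel replicate 1 (1.44, adjusted p = 0.0663).

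Genes of mitosis and proliferation were higher in 501Mel as a list, with 14 of 14 called and a median of 3.29. Among all genes tested 17.2% were called in that direction. TOP2A, the topoisomerase of dividing cells, was higher by 4.50 (adjusted p = 0.00083), BIRC5, which encodes survivin, by 3.68 (adjusted p = 0.00318), MKI67, which encodes Ki-67, by 3.58 (adjusted p = 0.0036) and the spindle factor TPX2 by 3.52 (adjusted p = 0.00088). Summed over the list the level was 2215 and 1718 CPM in 501Mel and 327, 80.7 and 165 CPM in Hermes 3A. In Hermes 3A replicate 1 all 14 genes stood at the highest level of the line, as CDKN3 did. Relative to the summed list CDKN3 was lower in 501Mel, at 1.29% and 1.24%, than in Hermes 3A, at 3.54%, 6.74% and 3.28%.

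**Figure D4:**
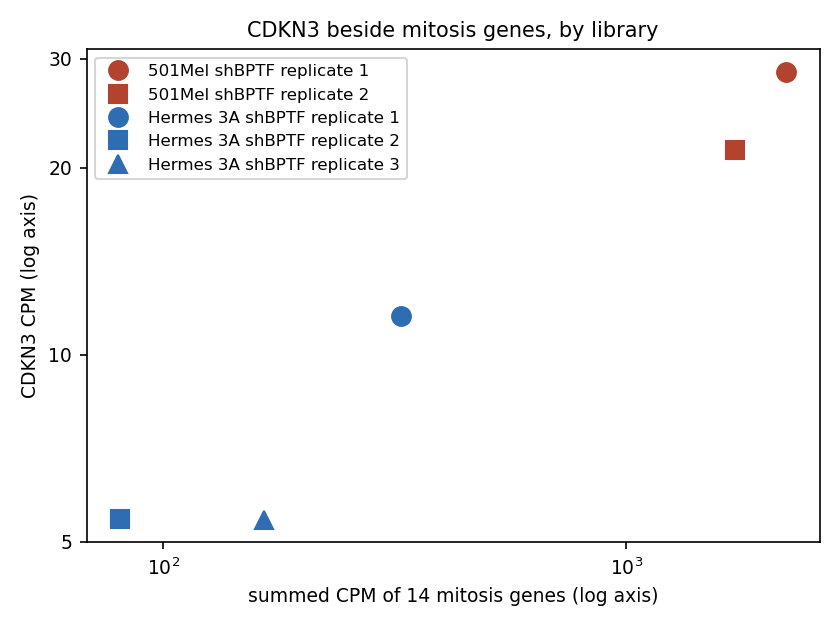
CDKN3 in CPM (log axis) against the summed CPM of 14 mitosis genes (log axis) in each of the 5 libraries. Both 501Mel libraries lay at the top right, and of the Hermes 3A libraries replicate 1 was the highest on both axes, at 11.5 CPM of CDKN3 and 327 CPM of the list.

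To compare genes with each other, CPM was divided by the length in kb of all annotated exons of a gene. In 501Mel the order of the levels per kb was CDKN1B at 25.4 ± 3.76, CDKN2A at 16.3 ± 2.64, CDKN3 at 13.6 ± 2.79, CDKN2C at 8.37 ± 1.70, CDKN2B at 6.71 ± 2.73, CDKN2D at 3.19 ± 0.207, CDKN1C at 0.382 ± 0.269 and CDKN1A at 0 (CPM per kb, SD, n = 2). The ranges of CDKN2A and CDKN3 overlapped across libraries, although within each 501Mel library CDKN2A was the higher (18.1 against 15.6 and 14.4 against 11.6). The ranges of CDKN2C and CDKN2B also overlapped. These 2 genes changed order between the libraries and were not distinct. In Hermes 3A the order was CDKN1A at 296 ± 65.3, CDKN2A at 29.5 ± 2.96, CDKN1B at 24.7 ± 2.27, CDKN2B at 6.48 ± 0.545, CDKN2D at 4.78 ± 0.213, CDKN3 at 4.07 ± 1.92, CDKN1C at 3.93 ± 1.37 and CDKN2C at 2.14 ± 0.516 (CPM per kb, SD, n = 3). The range of CDKN2A overlapped with that of CDKN1B, although CDKN2A was the higher within each Hermes 3A library. From CDKN2D down to CDKN2C the range of each gene overlapped with the next. Of these pairs only CDKN1C and CDKN2C kept their order in each library. CDKN1A was thus first in one line and last in the other, and CDKN2C was last in Hermes 3A and in the middle of the order in 501Mel, while CDKN2A and CDKN1B were among the first 3 in both.

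Summed by family on this scale, Cip/Kip genes made up 35.2% and 34.4% of the CDK inhibitor RNA in 501Mel and 85.4%, 86.9% and 89.2% in Hermes 3A. INK4 genes made up 45.6% and 48.2% in 501Mel and 12.7%, 12.2% and 10.2% in Hermes 3A. This shift in shares went with CDKN1A, since the summed INK4 level was 37.0 and 32.1 CPM per kb in 501Mel and 42.9, 39.9 and 45.9 CPM per kb in Hermes 3A. CDKN3 took 19.2% and 17.5% in 501Mel and 1.87%, 0.906% and 0.655% in Hermes 3A. With the median transcript length in place of all exons, Cip/Kip genes made up 36.3% and 37.0% in 501Mel and 74.6%, 77.1% and 80.1% in Hermes 3A.

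**Figure D5:**
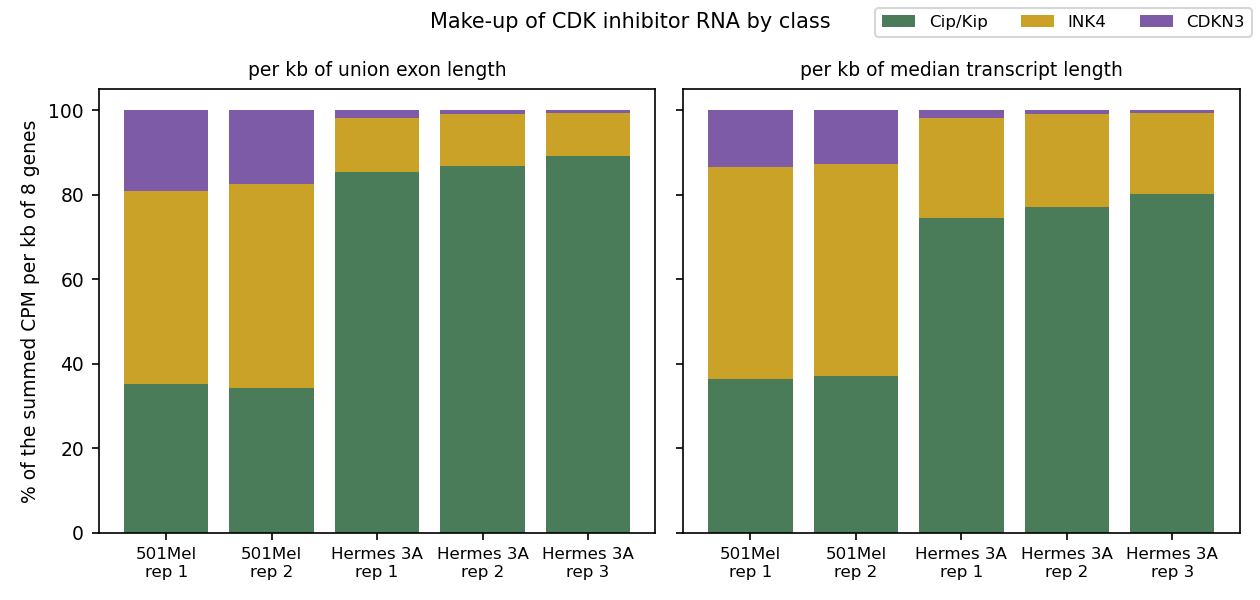
Share of each family in the summed CPM per kb of the 8 CDK inhibitor genes, in percent, for each of the 5 libraries, with gene length taken as all exons on the left and as the median transcript on the right. The Cip/Kip share was 34.4% to 35.2% in 501Mel and 85.4% to 89.2% in Hermes 3A with all exons, and the ordering of the lines was the same with the median transcript.

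Spread between replicates differed from gene to gene. In 501Mel the higher of the CDKN1C libraries was 2.98 times the lower, a ratio exceeded by 3.11% of 16059 genes, and for CDKN2B the ratio was 1.81, exceeded by 11.5%. The median ratio of all genes in this line was 1.21. In Hermes 3A the highest library was 2.13 times the lowest for CDKN3, exceeded by 14.3% of 14963 genes, and 2.09 times for CDKN1C, exceeded by 15.1%, against a median of 1.33. CDKN2D was the steadiest CDK inhibitor gene of both lines, with ratios of 1.10 and 1.09.

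The genes with the profile most like that of each CDK inhibitor were found over the 5 libraries by the root mean square difference of log2 CPM centred on its mean. Before the log2, 0.1 CPM was added to each value. Distances that involve counts at or near 0, as for CDKN1A and AC007041.1, depend on this choice. CDKN1A was nearest to S100A6 (0.561) and H1F0 (0.770), which shared its 0 counts in 501Mel, CDKN1C to APLP1 (0.138) and ECM1 (0.230), and CDKN1B to PLEKHA5 (0.0258) and PDCL (0.0264). For the INK4 genes the nearest were ELL (0.0535) and TEX9 (0.0540) for CDKN2A, ARHGAP45 (0.0337) and TSC22D1 (0.0397) for CDKN2B, AC000068.1 (0.0414) and CSRP2 (0.0740) for CDKN2C, and IRF2BP2 (0.0202) and MAPRE2 (0.0203) for CDKN2D. CDKN3 was nearest to AC007041.1 (0.0659), which had at most 18 counts in any library, and TNFSF13B (0.0912). With 5 libraries from 2 lines, such likeness describes the libraries and nothing more.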

How the data were processed

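Total RNA depleted of ribosomal RNA was sequenced from 5 libraries, grouped by the line and replicate number in their labels. The study reports its experiments as done in triplicate or more, but the labels do not say whether these replicates were separate cultures. The p-values therefore measure the spread between these libraries, which may be technical. Libraries were treated with duplex-specific nuclease, which removes abundant cDNA and can flatten high levels. The authors deposited read counts per gene, unnormalized, and each file lists Ensembl identifiers. The submitters' processing notes name hg19, CASAVA 1.8, TopHat 1.4.1 and Bowtie 0.12.7. The counting program, strand setting and annotation were not given in the sources used here. 6230 genes were listed for 501Mel alone and 3004 for Hermes 3A alone, and a missing gene was not taken as 0.

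Names, coordinates and lengths came from GENCODE 29 (GRCh38), which differs from the build of the files and named 91.6% of identifiers. Genes listed for both lines were filtered (filterByExpr), scaled by TMM with full library totals and tested with edgeR 4.0.16 (glmQLFit and glmQLFTest, Benjamini-Hochberg adjustment) in R 4.3.3. SE is the absolute log2 fold change over the square root of F, and 95% intervals use the t distribution on the total degrees of freedom. CPM values are not TMM-scaled. Alternatives were DESeq2 1.42.0, other scaling, no filter, a replicate block, other lengths and leaving out each replicate. On simulated data edgeR called 97.96% of 196 genes changed by 2 on the log2 scale among 17406 tested, and 4.48% of the genes it called were unchanged. The simulation used a single dispersion for all genes and changed 200 of them, up and down alike. It does not give the power in these data, where 34.3% of genes tested were called. Replicate libraries differed by far more than sampling noise (lowest chi-square per gene, 21.5), and none were merged.

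The CDK inhibitor genes and the lists were chosen with earlier results of these data known. Named genes are the 8 CDK inhibitors, BPTF, up to 4 called genes with the largest absolute log2 fold change in each list, every gene of the 9p21, 11p15 and INK4 partner lists, and the 2 nearest profiles. MDM2, MDM4, MITF, RNF123, TFDP1, RB1, TBP and the genes at 0 in 501Mel were named after their values were seen. The DNA damage and stress list first held 2 more genes, which are not reported here for a reason that does not depend on their values.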

Additional observations from a re-analysis of the deposited data

How the results depend on the processing

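The number of CDK inhibitor genes called, 4, and of all genes called, 6145, stayed within 1.5 times of these values under the alternatives run. The 4 include CDKN1A, whose call was fixed by its 0 counts in 501Mel, so its part in this count is no check. The count over the other 7 genes was not followed separately through these alternatives. With RLE size factors, library totals, DESeq2, no low count filter or a replicate block, 4 CDK inhibitor genes were called, and leaving out each replicate gave 4 to 5, with 4843 to 6483 of all genes. Leaving out a 501Mel replicate leaves 1 library of that line, assumed to vary like the other line. Without 501Mel replicate 1 CDKN3 lost its call and CDKN2A gained one, and without Hermes 3A replicate 2 CDKN2A gained one. The fold change of CDKN1B and CDKN2B, not called throughout, lay on either side of 0. Replicates with the same number in both lines deviated together only weakly (r = 0.118 across genes over 2 pairs), so the numbers are not shown to pair libraries, and the replicate block called 5646 genes. DESeq2 called 5980 genes. Calls higher in 501Mel were 45.7% to 53.3% of all calls over these settings. Chosen after seeing the data, counting genes listed for 1 line as 0 in the other gave 4 CDK inhibitor genes and 6642 genes, adjusted p alone gave 5 and 8664, and keeping genes over the filter level in both lines gave 3 and 4395.

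With the median transcript length 2 genes changed place in the order of levels in 501Mel (CDKN2B and CDKN2C) and 3 in Hermes 3A (CDKN2D, CDKN3 and CDKN1C). Calls in the lists moved by over 1.5 times in these cases. Without 501Mel replicate 1 the INK4 partner list had 1 and the melanocyte list 2. The fibroblast list had 2 to 3 under 7 settings. Without 501Mel replicate 2 the keratinocyte list had 0. By adjusted p alone the RB and E2F list had 9, ubiquitin ligases 8, 9p21 neighbours 4 and keratinocyte markers 2. Among genes over the filter level in both lines 9p21 neighbours had 1, and fibroblast and keratinocyte markers had 0. Counting these list changes and those of CDKN3 and CDKN2A, 13 values for single genes and lists gained calls and 7 lost them. Of the other 280, values of single genes kept their side of the threshold or stayed within the replicate spread. The list counts among these 280 moved by at most 1.5 times. Depth limits values near 3 counts, such as CDKN1A in 501Mel.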
